A study of Drosophila melanogaster with 11 samples.

Results

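The 7 genes Adar, Hel25E, SF2, SRp54, B52, Hrb27C and Hrb87F encode proteins tied to the making, editing or export of circular RNAs (circRNAs). They were picked by name for these roles, and their linear transcripts were followed among 13804 linear genes measured in fly heads, beside the circRNA total of each library. All 7 were present in the table and all 7 passed the filter on low values, which 12676 linear genes passed. SRp54 is written Srp54 in the table. That row is the SR protein gene and not Srp54k, a subunit of the signal recognition particle.

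The flies were wild-type males of the strain CS (CantonS) of Drosophila melanogaster. They were raised at 25 °C under 12 h of light and 12 h of dark, mated, separated under CO2, and given 1 day to recover. Males were frozen at that point (pre-treatment, 3 libraries) or after 10 days at 18 °C (3 libraries), 25 °C (2 libraries) or 29 °C (3 libraries), so the exposed flies were also 10 days older than the pre-treatment flies, and age and exposure cannot be told apart in a comparison with pre-treatment. Each library came from heads of males pooled across vials and was made from ribodepleted total RNA with a directional kit. No group carried a transgene or a mutation by the labels.

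A circRNA forms when a splice donor is joined back to an upstream acceptor, and this backsplicing competes with linear splicing of the same exons. Base pairing between inverted repeats in the flanking introns brings the ends together, ADAR enzymes can loosen such pairing by turning adenosine into inosine (shown in mammalian cells), and SR and hnRNP proteins act in combination on the choice between both outcomes (shown in Drosophila cells). Once made, long circRNAs need the helicase Hel25E to leave the nucleus in Drosophila cells, and circRNAs accumulate in ageing neurons because they lack the ends that exonucleases use.

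Among the 7 factors, few changed. Adar and SF2 were lower at 29 °C than before treatment, by less than the study's fold limit, and Hrb87F was higher at 18 °C than before treatment. The differences of SF2 and Hrb87F shrank, and no longer passed, once the number of reads of each library entered the fit. Each of these calls, that of Adar included, was lost in some alternative fits. No factor passed the test in the comparison of 29 °C with 18 °C, of 29 °C or 18 °C with 25 °C, or of 25 °C with pre-treatment. Of all genes, 18.1%, 0.820%, 4.63% and 8.24% passed there by adjusted p alone, in that order. Simulated data for 29 against 18 °C gave back 18% of 1.5-fold changes. A factor that did not pass may thus still have changed. Within groups, 5 of the 7, beside 40.9% of all genes, took an extreme value in the library with the fewest reads, which was also the library with the most circRNA. Values below are normalized reads, that is reads scaled by 1 size factor per library, and a gene was called where limma gave a log2 fold change beyond 0.5 in either direction with an adjusted p below 0.05 (Benjamini-Hochberg adjustment over 12676 genes). Calls by adjusted p alone are given as well.

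Libraries held 32.1 M to 123 M reads (M, mega). The pre-treatment libraries had 32.1 to 52.4 M, those at 18 °C 51.0 to 123 M, those at 25 °C 56.4 to 62.9 M and those at 29 °C 54.0 to 76.9 M. Depth at 18 °C and before treatment overlapped only in 18 °C replicate 3 (51.0 M) and pre-treatment replicate 2 (52.4 M). All libraries at 25 and 29 °C were deeper than all pre-treatment libraries. In comparisons with pre-treatment, fits with reads as a covariate thus rest on groups that barely shared a depth or shared none. Pre-treatment replicate 2 stood apart with a circRNA total of 14195 normalized reads, below 33679 and 37163 in replicates 1 and 3. Neuron markers (elav, nSyb, Syt1, brp and Appl) summed to 240059 to 324270 across libraries, and 4 germ line and gonad markers to 41.0 to 99.0. These would look alike in heads and brains. Markers of head tissues outside the brain (5 genes each) were high too. Photoreceptor markers summed to 1367900 to 2032550, muscle markers to 115549 to 356088 and fat body markers to 704170 to 1062620. None of the markers measured was at 0 in all libraries.

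The circRNA total, the sum over 1928 circRNAs, averaged 28346 ± 12378 normalized reads before treatment (SD, n = 3), 35520 ± 3904 at 18 °C (n = 3), 39362 ± 6410 at 25 °C (n = 2) and 42423 ± 2958 at 29 °C (n = 3). All 3 totals at 29 °C lay above all 3 at 18 °C, and the ratio of means was 1.19, with an exact two-sided permutation p = 0.1, the smallest that 3 against 3 libraries allow. The ratio of 29 °C to pre-treatment was 1.50 (exact permutation p = 0.1), which became 1.20 without pre-treatment replicate 2, a value with no test. Adjusted over 6 comparisons, both exact permutation values became 0.3, and with so few libraries no comparison could have passed. CircRNAs with a genomic span of 2000 nt or more made up 28.8 ± 2.58% of the total over spans of 50 nt or more before treatment. They made up 29.9 ± 1.88% at 18 °C, 30.0 ± 1.78% at 25 °C and 32.6 ± 0.702% at 29 °C. Genomic span counts introns, so this class need not match the long circRNAs whose export needs Hel25E. In each group the share was lowest in the library with the fewest reads (26.0%, 27.8%, 28.7% and 31.8% in the same order).

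**Figure D1:**
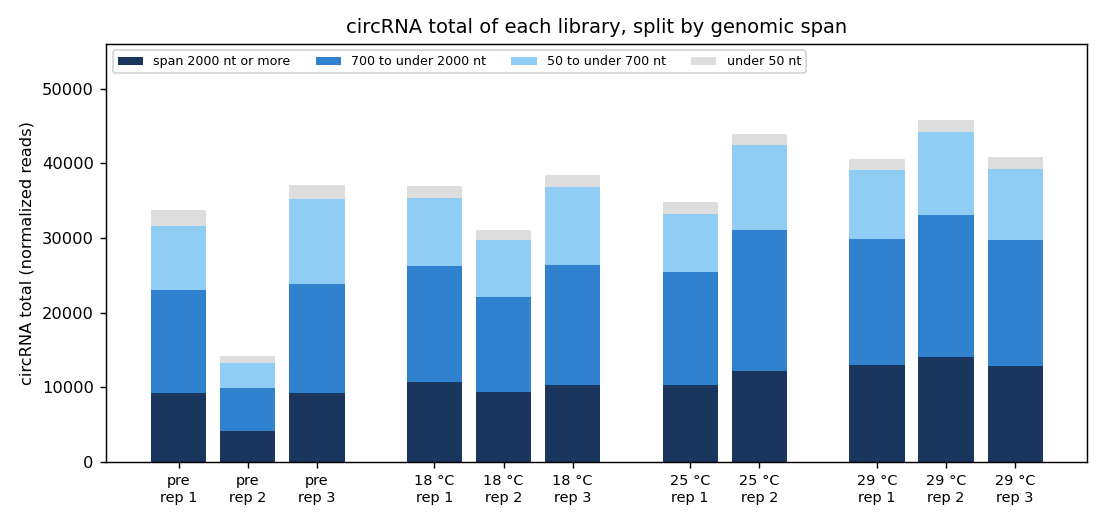
CircRNA total of each library in normalized reads, stacked by genomic span (2000 nt or more, 700 to under 2000 nt, 50 to under 700 nt and under 50 nt), with libraries ordered as pre-treatment, 18, 25 and 29 °C. Pre-treatment replicate 2, at 14195, is the lowest, and the 3 libraries at 29 °C reach 40625, 45837 and 40807.

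None of the 1928 circRNAs was named for, or lay within, any of the 7 genes, so each factor is described by its linear transcript alone. Per kilobase of exon (dm6, exons of Ensembl release 115), Hrb27C was the most abundant at a mean of 7050 normalized reads per kb at 29 °C and 6617 before treatment. B52 followed with 3997 per kb at 29 °C and 4554 before treatment, then SF2 with 2820 at 29 °C and 3841 before treatment and Adar with 1798 at 29 °C and 2260 before treatment. Hel25E (1700 at 29 °C and 1630 before treatment), Hrb87F (1808 at 29 °C and 1455 before treatment) and SRp54 (1192 at 29 °C and 1308 before treatment) had fewer still before treatment. The order of Hrb87F changed between groups: its mean per kb was below those of Adar and Hel25E before treatment and above both at 18 °C (2421, with 2118 for Adar and 1833 for Hel25E), at 25 °C and at 29 °C. At 18, 25 and 29 °C the gap to Adar was smaller than the SD of Hrb87F. The gap to Hel25E was smaller than that SD before treatment, at 25 °C and at 29 °C.

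**Figure D2:**
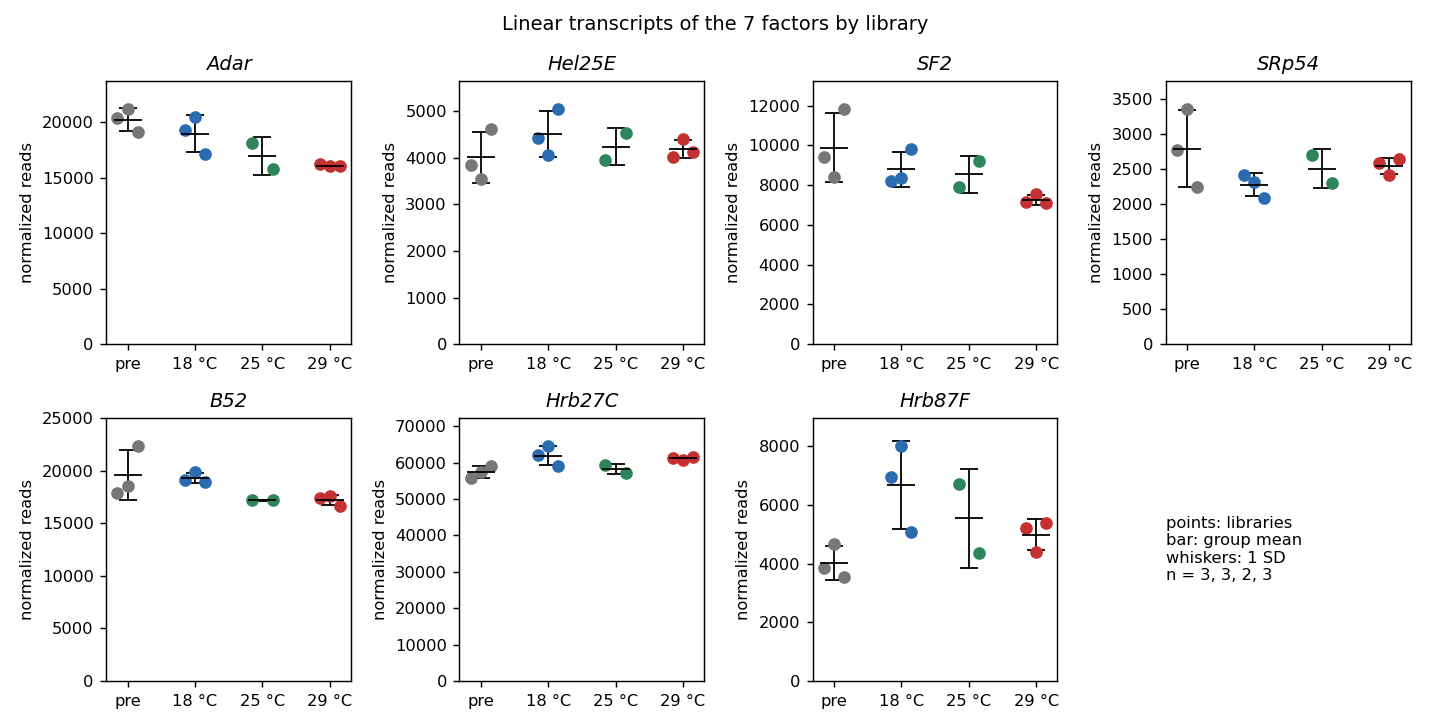
Normalized reads of the 7 factors in each library (points), with group means (bars) and 1 SD (whiskers), for pre-treatment, 18, 25 and 29 °C with n = 3, 3, 2 and 3. Adar and SF2 are lowest at 29 °C, Hrb27C is nearly level, and Hrb87F is spread most widely, with its highest value of 8010 at 18 °C.

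Adar is the only ADAR gene of the fly, edits transcripts of many neuronal channels and synaptic proteins, and lies on the X chromosome at positions 1773725 to 1788065 on the plus strand, where the gene prage overlaps it on the same strand. Adar had 20402, 21191 and 19181 normalized reads before treatment. At 18 °C it had 19335, 20478 and 17150, at 25 °C 18189 and 15788, and at 29 °C 16217, 16027 and 16103. The 29 °C libraries lay close together and below every library at 18 °C and before treatment, and they overlapped with 25 °C. Of all genes, 21.9% lay lower without overlap against 18 °C and 21.9% against pre-treatment. Adar fell at 29 °C relative to pre-treatment, with a ratio of means of 0.796 and a log2 fold change of -0.33 (SE 0.082, 95% interval -0.51 to -0.15, limma adjusted p = 0.0168). It passed by adjusted p alone, as 21.5% of all genes did in that comparison (12.2% of all genes as lower), and its fold was under the limit. With log2 reads of the library as a covariate the difference was -0.46 (limma adjusted p = 0.00168), and with scaling to the library total it was -0.25 (limma adjusted p = 0.109).

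In the same comparison the 5 neuron markers summed to 277309 to 299358 at 29 °C and 291391 to 324270 before treatment, with 1 of the 5 (brp) lower by adjusted p alone. In bulk heads, fewer cells of a type and less RNA per cell cannot be told apart, and the part of cell makeup in the change of Adar was not tested. Against 18 °C, Adar at 29 °C had a log2 fold change of -0.23 (SE 0.082, 95% interval -0.41 to -0.052) and did not pass (limma adjusted p = 0.0768). DESeq2 on recovered reads called it by adjusted p alone (-0.24, DESeq2 adjusted p = 0.0410). Against pre-treatment, Adar at 25 °C differed by -0.26 (limma adjusted p = 0.125), and all libraries at 25 °C lay below all pre-treatment libraries, as in 16.1% of all genes. With reads as a covariate that difference was -0.37 and passed (limma adjusted p = 0.0115), where 9.74% of all genes passed by adjusted p alone. Depth and exposure cannot be told apart in this comparison. An F test over the 4 groups passed for Adar alone among the 7 (limma adjusted p = 0.0436), against 24.3% of all genes.

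SF2 is the fly homologue of the SR protein SRSF1, which binds exonic enhancers and helps to define exons. The gene lies on chromosome 3R at 16338943 to 16341988 on the minus strand, where Sulf1 overlaps it on the same strand. SF2 had 9433, 8427 and 11822 normalized reads before treatment. At 18 °C it had 8235, 8358 and 9829, at 25 °C 7893 and 9195, and at 29 °C 7170, 7541 and 7084. Every library at 29 °C lay below every library of the other groups, and pre-treatment replicate 3 was far above the rest. Of all genes, 21.9% lay lower without overlap at 29 °C against 18 °C, 21.9% against pre-treatment and 14.1% against 25 °C. SF2 fell at 29 °C relative to pre-treatment, with a ratio of means of 0.734 and a log2 fold change of -0.43 (SE 0.12, 95% interval -0.70 to -0.16, limma adjusted p = 0.0297). With reads as a covariate the value was -0.22 (limma adjusted p = 0.195), and without pre-treatment replicate 3 it was -0.30 (limma adjusted p = 0.0731).

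Between 29 °C and 18 °C, SF2 had a log2 fold change of -0.27 (SE 0.12, 95% interval -0.54 to -0.0031) and did not pass (limma adjusted p = 0.159). There the covariate worked in the other direction, and with reads in the fit SF2 fell by 0.37 on the log2 scale (limma adjusted p = 0.0110). In that fit 29.6% of all genes passed by adjusted p alone, in either direction. The fit of both groups by themselves also called it (limma adjusted p = 0.0413).

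B52 (also known as SRp55) is an essential SR protein found at sites of active transcription, and it lies on chromosome 3R at 13661311 to 13666891 on the plus strand. B52 had 17929, 18610 and 22380 normalized reads before treatment. At 18 °C it had 19110, 19870 and 18943, at 25 °C 17225 and 17188, and at 29 °C 17447, 17589 and 16681. Values at 25 and 29 °C sat below those at 18 °C and before treatment with no overlap. Of all genes, 21.9% lay lower in this way at 29 °C against 18 °C and 21.9% at 29 °C against pre-treatment. For 25 °C against pre-treatment 16.1% lay lower, and for 18 °C against 25 °C 15.9% lay higher. None of these differences of B52 passed, at -0.16 for 29 against 18 °C (SE 0.081, limma adjusted p = 0.208) and -0.18 for 29 °C against pre-treatment (SE 0.081, limma adjusted p = 0.139). Between 29 and 25 °C the difference was 0.0023 with a 95% interval of -0.20 to 0.20.

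SRp54 is an SR-type splicing factor, on chromosome 2L at 9912911 to 9915044 on the plus strand, with 1 exon block. It had the fewest reads of the 7, with 2770, 3355 and 2252 normalized reads before treatment. At 18 °C it had 2416, 2318 and 2094, at 25 °C 2701 and 2307, and at 29 °C 2583, 2410 and 2638. All groups overlapped for SRp54. The widest difference was between 18 °C and pre-treatment, at -0.28 (SE 0.13, limma adjusted p = 0.182). With reads as a covariate it was -0.58 (limma adjusted p = 0.0332), where 12.3% of all genes passed by adjusted p alone. Depth and exposure cannot be told apart in this comparison.

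Both hnRNPs belong to the A/B type, which bind nascent transcripts and often counter SR proteins at splice sites. Hrb27C (Hrp48) is best known for repressing splicing of the P element in somatic cells, and Hrb87F sits in nuclear omega speckles with the long non-coding RNA of the hsr-omega gene. Hrb27C, on chromosome 2L at 6920704 to 6932057 on the plus strand, was the steadiest of the 7. It had 55843, 57525 and 59198 normalized reads before treatment, 62162, 64625 and 59166 at 18 °C, 59323 and 57219 at 25 °C, and 61427, 60802 and 61623 at 29 °C. Its highest library was 1.16 times its lowest. Only 1.06% of genes tested varied less on the log2 scale over the 11 libraries. At 29 °C every library exceeded every pre-treatment library, as in 19.3% of all genes. The difference of 0.092 (SE 0.062, 95% interval -0.045 to 0.23) did not pass (limma adjusted p = 0.317).

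Hrb87F was the most variable, with a highest library 2.27 times the lowest. It had 3847, 4660 and 3536 normalized reads before treatment, 6967, 8010 and 5059 at 18 °C, 6722 and 4351 at 25 °C, and 5197, 4387 and 5381 at 29 °C. All 18 °C libraries lay above all pre-treatment libraries, as in 14.9% of all genes, while 25 and 29 °C overlapped with both of these groups. Hrb87F rose at 18 °C relative to pre-treatment, with a ratio of means of 1.66 and a log2 fold change of 0.72 (SE 0.20, 95% interval 0.28 to 1.16, limma adjusted p = 0.0339). It was the only factor past both thresholds in any comparison. In this comparison 9.14% of all genes were called, 4.69% as higher.

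Reads per library also differed between these groups, as given above. Within each of the 4 groups Hrb87F followed the order of reads, as 5.58% of genes did. With log2 reads of the library as a covariate the difference of 18 °C to pre-treatment was 0.12 (SE 0.16, limma adjusted p = 0.648), and without 18 °C replicates 1 and 2, the pair of deepest libraries, it was 0.34 (limma adjusted p = 0.540), an alternative chosen after the data were seen. Depth and exposure cannot be told apart in this comparison, since only 1 library of each group overlapped in reads. Fold changes of Hrb87F between 29 and 18 °C (-0.40, SE 0.20, limma adjusted p = 0.203) and between 25 °C and pre-treatment (0.44, SE 0.22, limma adjusted p = 0.280) did not pass. Hrb87F and B52 are neighbours on chromosome 3R, transcribed away from each other with 779 bases between them, and Hrb87F occupies 13656846 to 13660531 on the minus strand.

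Hel25E, the fly homologue of UAP56, loads export factors on spliced RNA as part of the TREX complex. It lies on chromosome 2L at 5539326 to 5542314 on the minus strand. Hel25E had 3850, 3557 and 4623 normalized reads before treatment, 4427, 4058 and 5044 at 18 °C, 3956 and 4530 at 25 °C, and 4016, 4396 and 4132 at 29 °C. Its groups overlapped in all 6 comparisons. The largest difference was 0.17 for 18 °C against pre-treatment (SE 0.11, 95% interval -0.075 to 0.42, limma adjusted p = 0.324), and that of 29 against 18 °C was -0.10 (95% interval -0.35 to 0.14, limma adjusted p = 0.595). With reads as a covariate, Hel25E passed at 18 °C against pre-treatment (0.49, limma adjusted p = 0.0159) and at 29 °C against pre-treatment (0.28, limma adjusted p = 0.0461), where 12.3% and 18.2% of all genes did so by adjusted p alone. Depth and exposure cannot be told apart in either comparison.

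**Figure D3:**
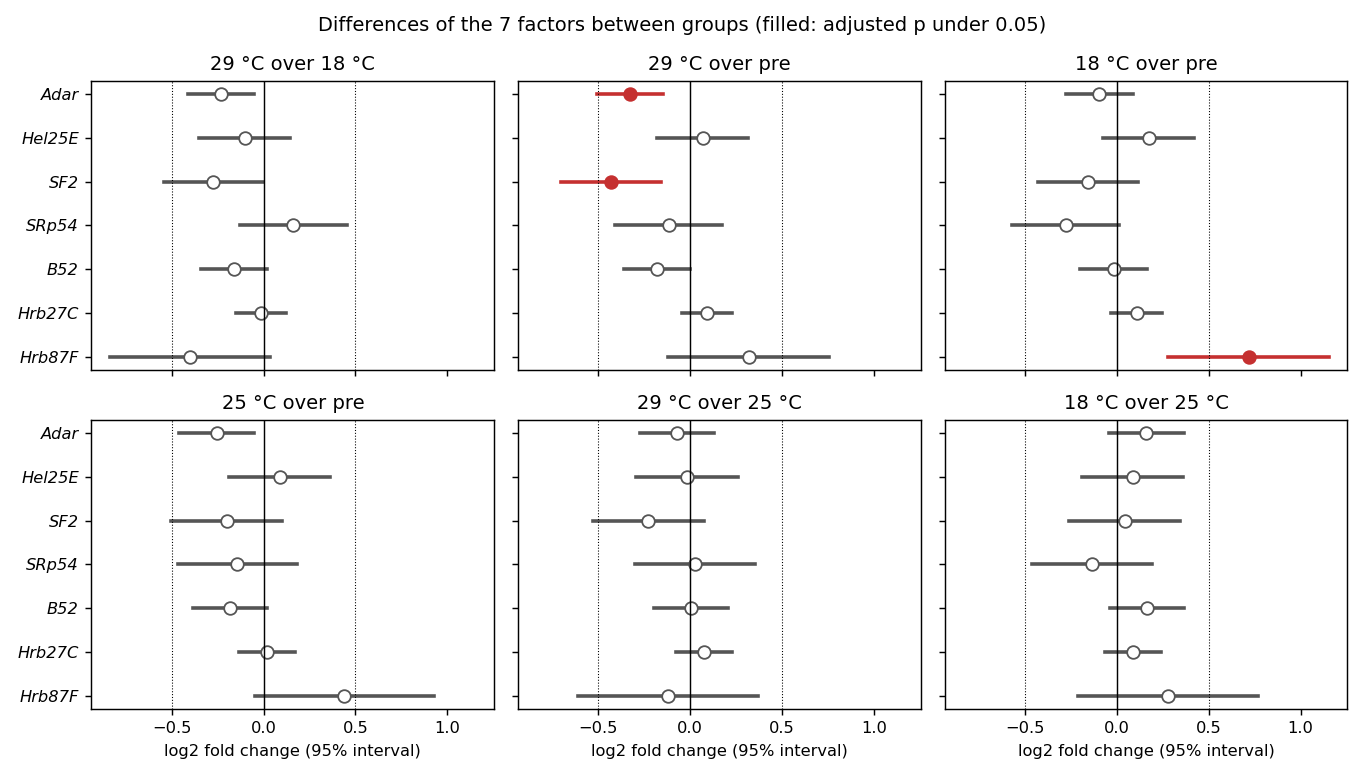
Log2 fold change with 95% interval of the 7 factors in 6 comparisons from limma, with filled red points for an adjusted p under 0.05 and dotted lines at -0.5 and 0.5. Adar (-0.33) and SF2 (-0.43) at 29 °C over pre-treatment and Hrb87F (0.72) at 18 °C over pre-treatment are the filled points.

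Counted together for 29 against 18 °C, 0 of the 7 passed limma's adjusted p, with or without the fold limit, beside 10.6% and 18.1% of all genes. At an unadjusted p under 0.05 there were 2 factors (Adar and SF2, beside 30.5% of all genes), by edgeR 0 and by DESeq2 1 (Adar, by adjusted p alone). In 3 factors (Adar, SF2 and B52) the 29 °C libraries all lay below the 18 °C libraries, while 21.9% of all genes did so. For 29 °C against pre-treatment, 2 of 7 passed by adjusted p alone and 0 with the fold limit, beside 21.5% and 12.8% of genes, and edgeR and DESeq2 gave the same counts. At an unadjusted p under 0.05 the count there was 3 of 7, beside 35.3% of genes. For 18 °C against pre-treatment Hrb87F alone of the 7 passed, by adjusted p alone (7.85% of genes passed as higher), with the fold limit (4.69% as higher) and at an unadjusted p under 0.05 (30.8% of genes in either direction).

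For 25 °C against pre-treatment 0 of 7 passed in limma, edgeR or DESeq2, beside 8.24% of genes by adjusted p alone and 5.43% with the fold limit, and 1 (Adar) had an unadjusted p under 0.05, beside 22.0% of genes. For 29 against 25 °C the count was 0 in each of these tools and at an unadjusted p under 0.05, beside 0.820% of genes by adjusted p alone, 0.639% with the fold limit and 10.1% unadjusted. For 18 against 25 °C it was 0 in each as well, beside 4.63%, 3.23% and 17.9% of genes. With 2 libraries at 25 °C, intervals against 25 °C reached 0.49 on the log2 scale to each side of the value for Hrb87F (-0.12 at 29 against 25 °C, 95% interval -0.61 to 0.37).

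The factors were next set beside the circRNA total within groups. In every group the library with the fewest reads (pre-treatment replicate 3, 18 °C replicate 3, 25 °C replicate 2 and 29 °C replicate 2) had the highest circRNA total. That same library had the highest Hel25E and the highest SF2 of its group, and the lowest Adar, SRp54 and Hrb87F. Such an extreme in all 4 groups was seen in 5 of 7 factors and in 40.9% of all genes. B52 and Hrb27C did not show it. Depth and circRNA total thus moved together, and their parts in the values of the 5 factors cannot be told apart from these libraries.

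Fitted with group as a term, the slope of log2 level on log2 circRNA total was 0.25 for Hel25E (SE 0.090), 0.29 for SF2 (SE 0.093), -0.36 for SRp54 (SE 0.087), -0.41 for Hrb87F (SE 0.17) and -0.13 for Adar (SE 0.077). For B52 it was 0.084 (SE 0.083) and for Hrb27C -0.019 (SE 0.065). No gene of the 12676 and no factor reached a limma adjusted p under 0.05 for this slope (0.00% of genes), while 34.2% of genes had an unadjusted p under 0.05, as did 4 of the factors. The slopes moved with pre-treatment replicate 2. Without it they were -0.56 for Adar, 0.80 for Hel25E, 0.69 for SF2, -0.62 for SRp54 and -1.71 for Hrb87F, with limma adjusted p of 0.0293, 0.0116, 0.0439, 0.0690 and 0.00295 in that order. In that fit 4 of the 7 passed, beside 33.9% of all genes. Without pre-treatment replicate 1 Hel25E, SF2 and SRp54 passed (limma adjusted p = 0.0210, 0.0166 and 0.0152), beside 30.8% of all genes. With reads as a further term the slope was -0.017 for Adar, 0.11 for Hel25E, 0.18 for SF2, -0.29 for SRp54, 0.091 for B52, 0.036 for Hrb27C and -0.097 for Hrb87F, and none of the 7 passed (the lowest limma adjusted p was 0.695). The slope on log2 reads itself, added after the data were seen, passed for Hrb87F (0.58, limma adjusted p = 0.0214), Adar (0.19, limma adjusted p = 0.0476), Hel25E (-0.30, limma adjusted p = 0.0231) and SF2 (-0.30, limma adjusted p = 0.0395), and for 26.4% of all genes.

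**Figure D4:**
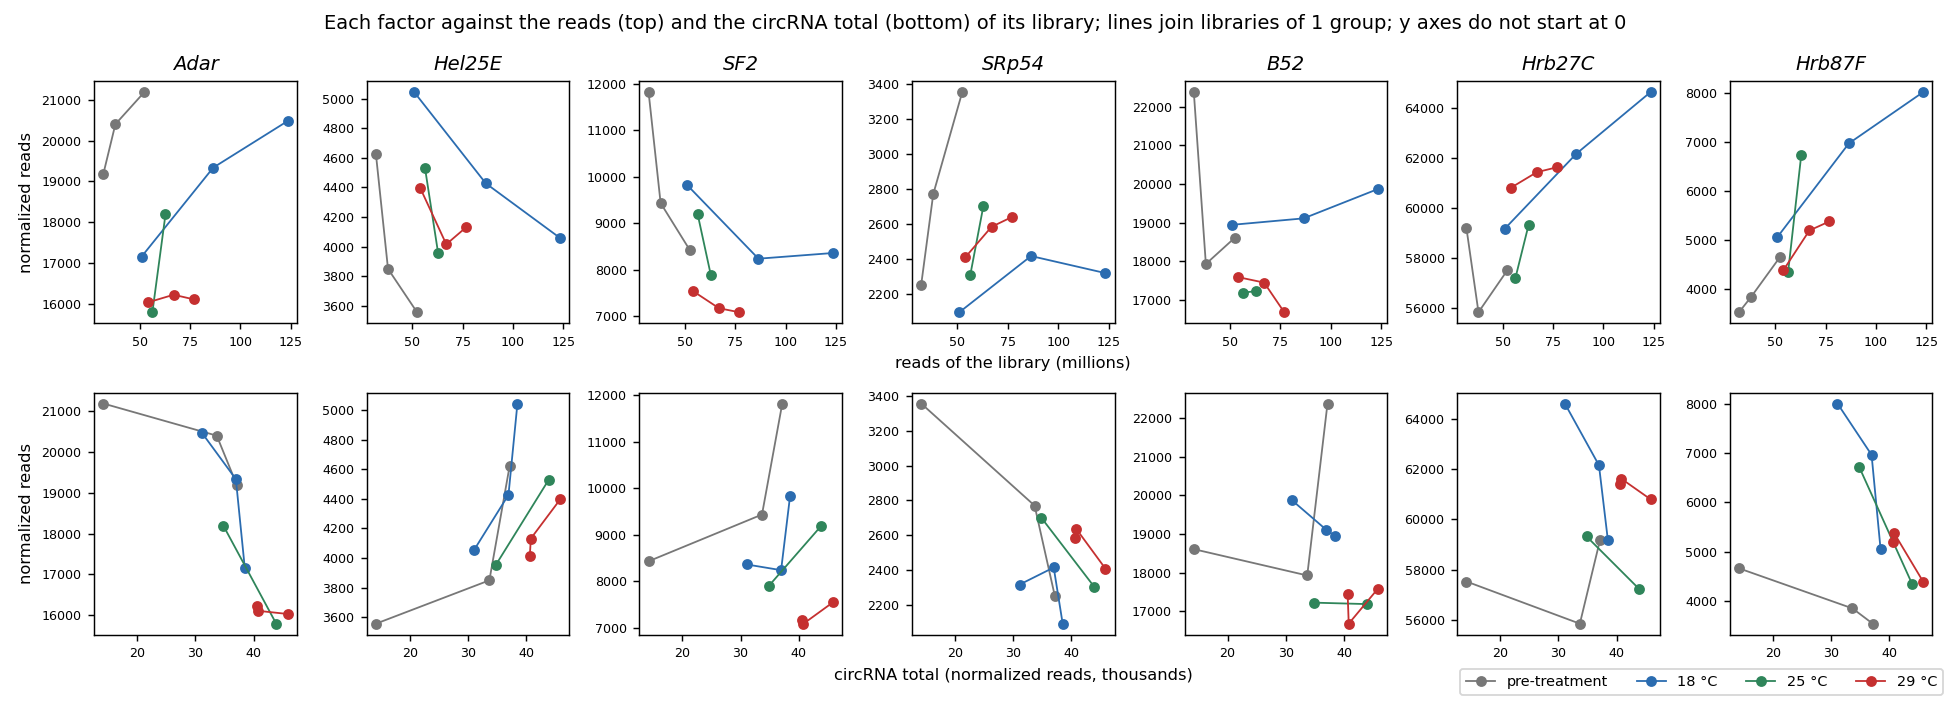
Normalized reads of each factor against the reads of its library in M (top) and against the circRNA total in units of 1000 normalized reads (bottom), with a line joining the libraries of 1 group (pre-treatment, 18, 25 and 29 °C). Hrb87F climbs with reads in all 4 groups, as 5.58% of all genes do. Hel25E climbs and Adar descends with the circRNA total in all 4 groups, as 8.84% and 9.14% of all genes do. B52 and Hrb27C show no direction shared by all 4 groups, though Hrb27C climbs with reads in 3 of the 4.

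Over the 11 libraries, the linear genes most like each factor in log2 level were, of 9922 genes searched, beat-VI and Epac for Adar (Pearson r = 0.983 and 0.980), Mp and Invadolysin for SF2 (0.990 and 0.986), Spn77Ba and vig2 for Hel25E (0.963 and 0.961) and tmod and Ric for SRp54 (0.950 and 0.938). For B52 they were bves and RhoGAP1A (0.961 and 0.931), for Hrb27C 1 of 2 rows named xmas and CG8405 (0.920 and 0.918), and for Hrb87F Vps13D and phol (0.977 and 0.972). The 11 points include both the group differences and the depth differences above, so these values are a description.

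To see whether the 7 factors stood in a wider movement of their machinery, 83 genes in 5 lists were read from the same fit, the 7 among them. For 29 against 18 °C, 0 were called higher and 1 lower, or 4 and 4 by adjusted p alone. For 29 °C against pre-treatment, 1 was called higher and 0 lower (1 and 5 by adjusted p alone), and for 18 °C against pre-treatment again 1 and 0 (5 and 1 by adjusted p alone). For 25 °C against pre-treatment, 0 were called and 1 rose by adjusted p alone, and for 29 or 18 °C against 25 °C limma called 0 by either rule. Calls with the fold limit came to 1.20% of the 83 in each of the first 3 comparisons, beside 10.6%, 12.8% and 9.14% of all genes. By adjusted p alone, 9.64% of the 83 passed for 29 against 18 °C, beside 18.1% of all genes. For 29 °C against pre-treatment 7.23% of the 83 passed, beside 21.5% of all genes. For 18 °C against pre-treatment 7.23% of the 83 passed, beside 7.85% of all genes as higher and 8.10% as lower. For 25 °C against pre-treatment the shares were 1.20% and 8.24%.

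Beside Hrb87F, both other calls with the fold limit were for RNA-binding proteins linked to circRNA making. The KH-domain gene qkr58E-3, related to quaking, had 2384, 2180 and 2372 normalized reads at 29 °C and 3600, 3652 and 3685 at 18 °C. These groups stood well apart, and qkr58E-3 fell with a log2 fold change of -0.66 (SE 0.077, limma adjusted p = 0.000332). The splicing factor muscleblind (mbl), whose protein promotes the circularization of its own second exon, had 81459, 82220 and 75750 normalized reads at 29 °C and 49738, 54755 and 47469 before treatment. The gene count of mbl rose with a log2 fold change of 0.66 (SE 0.075, limma adjusted p = 0.000219). By the paper, gene counts take all reads within a transcript, so reads from inside mbl circRNAs can enter this count. Their part in the mbl values given here was not tested. Between 29 and 18 °C mbl rose by 0.43 on the log2 scale (limma adjusted p = 0.00285) and between 25 °C and pre-treatment by 0.42 (limma adjusted p = 0.0124), both by adjusted p alone.

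In the SR list (12 genes, with the kinases SRPK and Doa), SF2 and Rsf1 (-0.49, limma adjusted p = 0.00730) were among the genes that fell by adjusted p alone at 29 °C against pre-treatment, and 0 rose. Rsf1 is a splicing repressor that binds SR proteins and counters them. Rsf1 also fell at 18 °C against pre-treatment (-0.41, limma adjusted p = 0.0240). At 25 °C against pre-treatment its difference was -0.38 and did not pass (limma adjusted p = 0.0724). The median of the SR list was -0.16 at 29 °C against pre-treatment, beside 0.0040 over all genes, and -0.092 for 29 against 18 °C, beside -0.0037. At 25 °C against pre-treatment the median was -0.16 as well, beside -0.0079 over all genes. For 29 against 25 °C it was 0.014, beside -0.0050. All comparisons with pre-treatment share its 3 libraries. Rsf1 and the genes of the next paragraph were outside the naming rule and were picked after their values were seen.

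Of 14 hnRNP genes, glo (an hnRNP F/H protein) rose between 29 and 18 °C (0.25, limma adjusted p = 0.0333), and sqd, which partners with Hrb27C on localized oocyte mRNAs, rose at 18 °C against pre-treatment (0.30, limma adjusted p = 0.00989), as did Hrb87F. Among 22 other factors linked to circRNA making, how, a quaking homologue, fell between 29 and 18 °C (-0.34, limma adjusted p = 0.0239), as did Fmr1, a translational repressor (-0.24, limma adjusted p = 0.0205). The helicase mle, whose mammalian homologue DHX9 unwinds paired intron repeats, rose there (0.25, limma adjusted p = 0.0175). At 18 °C against pre-treatment qkr58E-3 rose by 0.28 and Prp8, the core protein of the spliceosome, by 0.25 on the log2 scale (limma adjusted p = 0.0332 and 0.0114), and at 29 °C against pre-treatment qkr58E-3 fell (-0.37, limma adjusted p = 0.00697). In the export list of 19 genes, Hpr1 of the THO complex rose at 18 °C against pre-treatment (0.31, limma adjusted p = 0.0390) and barc, a splicing factor homologous to Tat-SF1, rose between 29 and 18 °C (0.26, limma adjusted p = 0.0235). Of 16 genes of RNA decay and m6A, gw, which carries out silencing by microRNAs, fell between 29 and 18 °C (-0.22, limma adjusted p = 0.0278). Every named gene of this paragraph had groups that did not overlap in the comparison given. So did 42.9% of all genes for 29 against 18 °C. For 29 °C and 18 °C against pre-treatment the shares were 41.2% and 31.5%. The named genes were picked among those that passed, so the lack of overlap adds no support.

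**Figure D5:**
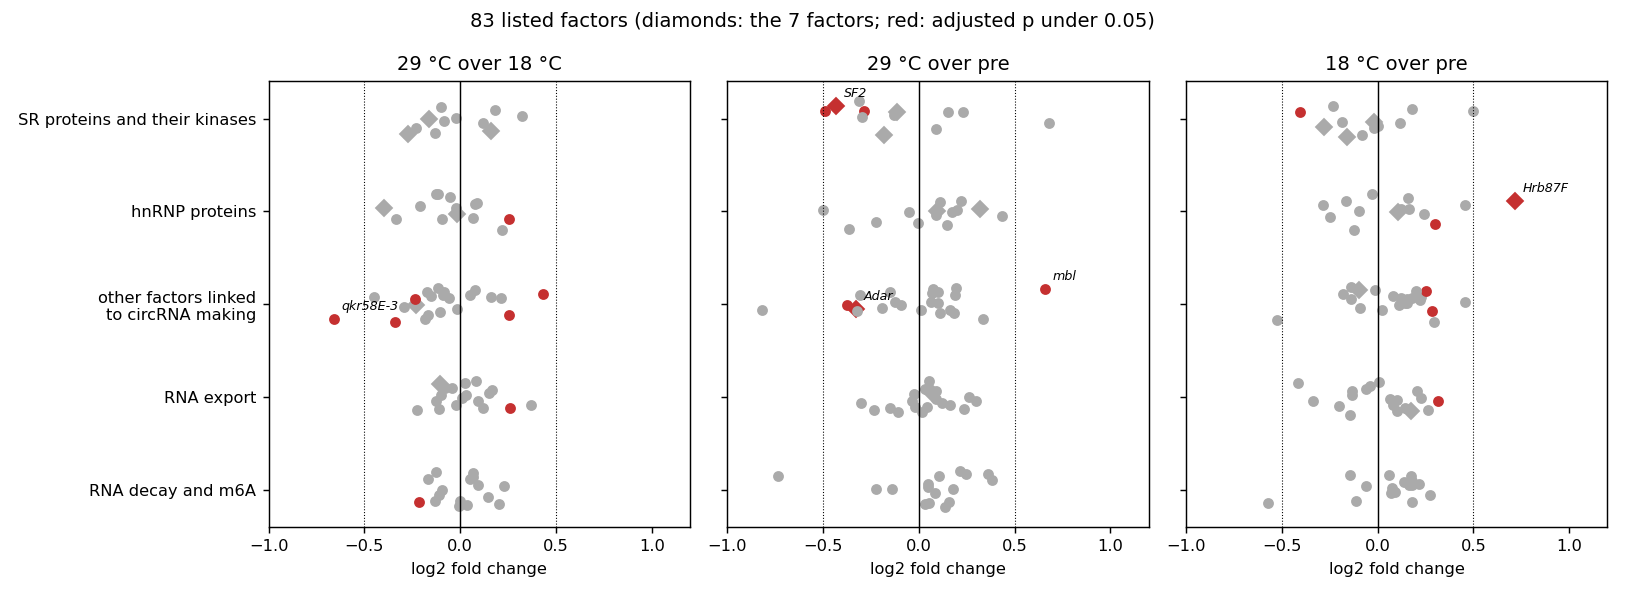
Log2 fold change of 83 listed genes in 3 comparisons, by list, with diamonds for the 7 factors, red for an adjusted p under 0.05 and dotted lines at -0.5 and 0.5. Genes past both thresholds and the red diamonds are labelled: qkr58E-3 at -0.66, mbl at 0.66, Hrb87F at 0.72, SF2 at -0.43 and Adar at -0.33.

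Markers of other cell types moved between the same groups. Muscle markers (5 genes) summed to 115549 to 144328 normalized reads at 18 °C and 161843 to 176549 at 29 °C, against 254979 to 356088 before treatment, with 4 of 5 lower by adjusted p alone in each. Glial markers (5 genes) summed to 48313 to 49103 at 29 °C and 70136 to 82965 before treatment, with 3 of 5 lower by adjusted p alone. At 18 °C they summed to 73974 to 79913. Photoreceptor markers (5 genes) summed to 1912420 to 2032550 at 29 °C and 1367900 to 1387940 before treatment, with 2 of 5 higher and 1 lower by adjusted p alone. Between 18 °C and pre-treatment, where Hrb87F rose, neuron markers summed to 240059 to 282472 at 18 °C and 291391 to 324270 before treatment (2 of 5 lower by adjusted p alone), and 5 fat body markers to 894725 to 1062620 at 18 °C and 767785 to 849876 before treatment (2 of 5 higher). Of the photoreceptor markers, 3 of 5 were lower there by adjusted p alone, while their sum was 1398330 to 1421890 at 18 °C and 1367900 to 1387940 before treatment. By adjusted p alone, 12.2% of all genes were lower and 9.35% higher at 29 °C against pre-treatment. At 18 °C against pre-treatment 8.10% of all genes were lower and 7.85% higher. Whether the marker shifts had a part in the values of Adar, SF2, Hrb87F or the listed genes was not tested.

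Counting error was small against the widest spreads between libraries, but not against the narrowest. The 7 factors held 1129 to 136239 recovered reads per library, which gives a counting error of at most 2.98% of the value. The coefficient of variation within a group ran up to 30.3% (Hrb87F at 25 °C). It was 0.154% for B52 at 25 °C and 0.594% for Adar at 29 °C. Both lay below the largest counting error of the same gene (0.944% for B52 and 1.02% for Adar). Every p-value here refers to the spread between libraries of pooled heads, which may be technical in part.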

How the data were processed

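Ribodepleted total RNA of male heads was sequenced in 11 libraries, grouped by the treatment named in the labels. The authors aligned reads to dm6 with STAR, assigned them to genes with featureCounts and counted circRNAs from head-to-tail junctions with find_circ2 (versions and strand setting not given in the sources used here). The deposited signal values are normalized reads: 1 DESeq2 size factor per library, computed over circular and linear reads together. After division by the smallest value of its library, 100% of values were whole within 0.01. Such recovered reads were summed as depth and tested in edgeR 4.0.16 and DESeq2 1.42.0. The design text mentions fly brains, the labels heads, and markers of photoreceptors, muscle and fat body were high in all libraries.

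Values were tested as log2(value + 1), so that fold changes of low genes are understated, with limma 3.58.1 in R 4.3.3 (trended empirical Bayes, 11 libraries in 1 fit, genes with a mean of 10 or more). For 29 against 18 °C limma called 1349 genes with the fold limit, edgeR's quasi-likelihood test 1385 and DESeq2 1630. Totals were compared by exact permutation. The step was tested on simulated data for 29 against 18 °C, with 50 genes of any level changed at each fold. Over 12676 genes, 0% of 1.25-fold, 18% of 1.5-fold, 62% of 2-fold and 86% of 4-fold changes were recovered by adjusted p alone. Of 87 calls, 4 were false. A floor of 3 reads was 1.42 to 5.98 normalized reads. Intervals of 95% come from limma. No pair of libraries was a duplicate.

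Positions are 1-based in dm6 from Ensembl release 115, and 81.4% of circRNAs had both ends at its exon ends. The 7 factors were always named, with up to 3 called genes per list, direction and comparison (smallest adjusted p first) and the 2 genes most correlated with each factor (mean of 100 or more). Of 5 germ line markers, 1 had no matching symbol. Members and lists were chosen with earlier results of these data known. Alternatives were other pseudocounts, filters and scalings, fits of the groups compared, a replicate term, reads as a covariate, no trend, edgeR, DESeq2 and leaving out each library. Tests of circRNAs hosted by the 7 genes had no values. One listed gene is not reported here.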

Additional observations from a re-analysis of the deposited data

How the results depend on the processing

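The 3 calls on single factors were near the threshold. By adjusted p alone the count at 29 °C against pre-treatment (2) was 1 with library total scaling, 0 with upper quartile scaling and 1 without a trend, and 0 to 2 without each library in turn. With the fold limit it was 0 to 1 over those libraries. At 18 °C against pre-treatment (1, by either rule) it was 0 in the fit of these groups alone, 0 without a trend, 2 by adjusted p alone with reads as a covariate, 0 without 18 °C replicates 1 and 2 together (chosen after the data were seen), and 0 to 1 without each library in turn. At 29 against 18 °C (0) it was 1 by adjusted p alone in the fit of these groups, with reads as a covariate and in DESeq2, and 0 to 1 without each library. At 25 °C against pre-treatment (0) it was 1 with reads as a covariate. The F test (1) gave 0 with library total or upper quartile scaling, without a trend and without those 2 libraries, 3 with reads as a covariate, and 0 to 2 without each library. The slope on the circRNA total (0) gave 0 to 4 without each library. The Hrb87F call was lost without pre-treatment replicate 1 (0.69, limma adjusted p = 0.0951) or 3 (0.63, 0.0999), 18 °C replicate 1 (0.67, 0.114) or 2 (0.57, 0.123) and 29 °C replicate 1 or 3 (0.72, 0.0532 and 0.0516). The Adar call was lost without pre-treatment replicate 1 or any library at 29 °C (-0.33 to -0.32, 0.0511 to 0.0591), and the SF2 call without those libraries or pre-treatment replicate 3 (-0.46 to -0.30, 0.0602 to 0.0990). The cause was not tested. Of 1148 values of single factors, 1067 kept direction and side of the threshold, 17 newly passed, 24 no longer passed and 40 turned direction, none of the 40 past the threshold.

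Directions that turned are given on the log2 scale. For 29 against 18 °C Hrb27C was at 0.028 (library total), 0.042 (upper quartile), 0.0059 (reads as a covariate) and -0.049 to 0.015 without each library. For 25 °C against pre-treatment Hrb27C was at -0.019 (reads as a covariate) and -0.0072 to 0.045 without each library, and Hel25E at -0.011 (without 25 °C replicate 2) to 0.19. For 29 °C against pre-treatment Hrb87F was at -0.091 (reads as a covariate), and without each library Hel25E ran from -0.014 to 0.18 and SRp54 from -0.26 to 0.025, both turned by leaving out pre-treatment replicate 2. For 18 °C against pre-treatment B52 was at 0.00059 (TMM), 0.019 (library total), 0.030 (reads as a covariate) and -0.080 to 0.080 (without pre-treatment replicate 3), and SF2 at 0.15 (reads as a covariate) and 0.0050 (without 18 °C replicates 1 and 2). For 29 against 25 °C Hel25E was at 0.0044 (library total) and 0.021 (upper quartile, and again with reads as a covariate), and SRp54 at -0.013 (reads as a covariate). There, without each library, Adar ran from -0.17 to 0.030, Hel25E from -0.12 to 0.079, SRp54 from -0.088 to 0.14, B52 from -0.012 to 0.026 and Hrb87F from -0.44 to 0.19. For 18 against 25 °C Hel25E ran from -0.012 to 0.18, SF2 from -0.067 to 0.15 and Hrb87F from -0.035 to 0.59. The slope on the circRNA total without the group term was -0.029 for SF2, -0.051 for B52 and 0.032 for Hrb27C. With reads as a further term it was 0.036 for Hrb27C, and without each library it was -0.046 to 0.16 for B52. The ratio of circRNA totals at 29 to 25 °C ran from 0.966 (without 25 °C replicate 1) to 1.22, and that of 18 to 25 °C from 0.809 to 1.02 (without 25 °C replicate 2), and was 1.11 with reads as a covariate.

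Replicate numbers did not pair the libraries: over 15 pairs with the same number, correlations of deviations ran from -0.47 to 0.47. With the replicate block the counts of factors were 0 for 29 against 18 °C, 2 by adjusted p alone for 29 °C against pre-treatment, 1 for 18 °C against pre-treatment and 1 in the F test, each the count without the block. Within the block B52 turned to -0.018 for 29 against 25 °C and SF2 to -0.023 for 18 against 25 °C, and the ratios of circRNA totals for same-numbered libraries were 1.20 for 29 to 18 °C, 1.62 for 29 °C to pre-treatment, 1.36 for 18 °C to pre-treatment, 1.79 for 25 °C to pre-treatment, 1.10 for 29 to 25 °C and 0.867 for 18 to 25 °C.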
